A study of Homo sapiens with 18 samples.

Results

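The genes described here encode the folding, quality control and stress signalling machinery of the endoplasmic reticulum (ER). They are 36 of the 23106 genes counted in each sample and were taken by symbol: ER chaperones and co-chaperones (11 genes), enzymes of disulfide formation (7 genes), stress sensors and transcription factors of the unfolded protein response (6 genes), components of ER-associated degradation (9 genes) and ER membrane and transport proteins (3 genes). All 36 symbols were found in the count tables, with ERO1A and ERO1B under their older names ERO1L and ERO1LB. PolyA+ RNA was sequenced from 3 established human cell lines in normoxia and in hypoxia, with 3 samples per group and 18 samples in all. HKC-8 cells, a line from kidney proximal tubule, and HepG2 cells, a line from hepatocellular carcinoma, were kept at 0.5% oxygen for 16 h according to the labels, although titles of the HKC-8 hypoxia group read 0.1%. RCC4+VHL cells, a kidney cancer line that lacks functional VHL and was stably transfected with wild-type VHL, were kept at 1% oxygen for 24 h by the labels, where the study's text gives 0.5% and 16 h for all 3 cell lines. By the labels, cell line, oxygen level and duration cannot be told apart in any comparison with RCC4+VHL. Each group rests on one cell line, and no label says that its samples came from separate cultures, so the p-values measure only the spread between these samples.

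HKC-8 samples had the highest total counts, 75441764 to 97984260, while RCC4+VHL samples had 42045335 to 51794355 and HepG2 samples 40915980 to 48355303. Of 8 genes listed as a check of hypoxia, including CA9, NDRG1 and VEGFA, all 8 rose in HKC-8 and in HepG2, and in RCC4+VHL the 6 that could be tested rose. CA9 had no count in the normoxic RCC4+VHL samples. The labelled cell types were checked against marker genes. In HepG2, 8 of 8 hepatocyte markers, albumin among them, reached 1 CPM (counts per 1000000 counts, scaled by the TMM factors of edgeR), whereas in HKC-8 only PAX8 and CDH16 of 8 renal tubule markers did, and LRP2, CUBN, AQP1 and GGT1, which define proximal tubule, stayed below 1 CPM. In RCC4+VHL, 6 of the 8 renal tubule markers reached 1 CPM, and in HepG2 3 did, so their number did not set HKC-8 apart from HepG2. Their sum was 142.6 to 182.6 CPM in normoxic HKC-8 and 39.84 to 46.14 CPM in normoxic HepG2. Leukocyte and endothelial markers summed to between 0 and 3.61 CPM in every group. Of 4 fibroblast markers, COL1A2 and DCN stayed below 1 CPM in every group, and the sum of the 4 was higher in hypoxia in each cell line. It was 10.05 to 17.1 CPM in normoxic and 22.2 to 25.3 CPM in hypoxic HKC-8, 43.7 to 49.3 and 62.9 to 66.2 CPM in RCC4+VHL, and 26.6 to 29.7 and 62.9 to 71.3 CPM in HepG2, and its part in the results was not tested. In bulk samples of this kind a lower level in a group may come from fewer cells of a type or from less RNA per cell, and these cannot be told apart.

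Secreted and membrane proteins are folded in the ER. HSPA5 (BiP) and HSP90B1 bind unfolded chains, calnexin and calreticulin hold glycoproteins, and protein disulfide isomerases form disulfide bonds with electrons passed on to the ERO1 oxidases and from them to oxygen. When unfolded chains accumulate, the sensors ERN1 (IRE1), EIF2AK3 (PERK) and ATF6 start the unfolded protein response: ERN1 splices the mRNA of XBP1, EIF2AK3 slows translation and favours ATF4, and cleaved ATF6 and spliced XBP1 act on the promoters of chaperone and degradation genes. ERO1A is also known as a target of the hypoxia-inducible factors (HIFs).

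The promoters of several of these genes carry the DNA elements through which the unfolded protein response is known to act. They were searched in windows of 300 bases (250 before to 50 after the start site, RefSeq sequences, build GRCh38.p14), which the table held for 32 of the 36 genes. PDIA3, DERL1, DERL3 and SEC24D were not in it. Both strands were searched for the ER stress response element (ERSE: CCAAT, any 9 bases, CCACG) and its shorter form ERSE-II (ATTGG, any 1 base, CCACG). An ERSE was found in 7 of the 32 windows (21.9%), against 27 of 35116 windows of all genes (0.0769%), and an ERSE-II in 3 (9.38%), against 19 (0.0541%). The element was first described from promoters of such chaperone genes, so its presence is a description of them. The 10 genes with either form were HSPA5, HSP90B1, HYOU1, CALR, CANX, SDF2L1, CRELD2, ERO1LB, XBP1 and HERPUD1. The windows below are those of 5 of these genes whose responses to hypoxia are described in the following paragraphs, with the ERSE of HSPA5 and XBP1 and the ERSE-II of SDF2L1, HYOU1 and HERPUD1 in capitals.
HSPA5, chr9:125241294-125241593, minus strand: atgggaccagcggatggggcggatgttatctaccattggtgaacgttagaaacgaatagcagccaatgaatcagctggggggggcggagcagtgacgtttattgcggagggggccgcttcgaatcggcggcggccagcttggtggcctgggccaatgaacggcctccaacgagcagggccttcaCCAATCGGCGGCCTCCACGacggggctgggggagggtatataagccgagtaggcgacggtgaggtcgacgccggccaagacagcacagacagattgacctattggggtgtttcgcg
XBP1, chr22:28800520-28800819, minus strand: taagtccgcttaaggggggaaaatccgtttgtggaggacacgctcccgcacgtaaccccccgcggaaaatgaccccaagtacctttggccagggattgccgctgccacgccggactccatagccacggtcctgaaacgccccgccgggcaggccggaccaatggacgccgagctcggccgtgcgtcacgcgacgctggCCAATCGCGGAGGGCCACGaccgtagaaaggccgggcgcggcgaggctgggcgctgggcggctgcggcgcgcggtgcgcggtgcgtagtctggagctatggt
SDF2L1, chr22:21642052-21642351, plus strand: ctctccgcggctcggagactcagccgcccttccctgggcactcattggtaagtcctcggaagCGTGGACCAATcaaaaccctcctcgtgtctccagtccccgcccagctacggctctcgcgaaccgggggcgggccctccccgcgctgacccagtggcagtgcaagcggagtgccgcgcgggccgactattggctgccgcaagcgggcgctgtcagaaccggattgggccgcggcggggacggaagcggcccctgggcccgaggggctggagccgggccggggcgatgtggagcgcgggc
HYOU1, chr11:119057156-119057455, minus strand: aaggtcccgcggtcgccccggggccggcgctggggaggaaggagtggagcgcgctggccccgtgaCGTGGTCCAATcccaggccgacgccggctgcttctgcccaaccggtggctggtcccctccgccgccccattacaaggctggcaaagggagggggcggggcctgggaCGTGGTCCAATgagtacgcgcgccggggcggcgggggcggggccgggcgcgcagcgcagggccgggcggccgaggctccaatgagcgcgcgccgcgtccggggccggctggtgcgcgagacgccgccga
HERPUD1, chr16:56931892-56932191, plus strand: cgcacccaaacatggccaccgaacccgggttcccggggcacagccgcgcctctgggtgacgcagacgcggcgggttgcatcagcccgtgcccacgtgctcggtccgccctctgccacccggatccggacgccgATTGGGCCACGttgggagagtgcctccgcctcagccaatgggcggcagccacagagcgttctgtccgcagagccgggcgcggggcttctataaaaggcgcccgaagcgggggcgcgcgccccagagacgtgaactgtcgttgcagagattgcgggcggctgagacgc

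The core letters of the HIF response element, ACGTG and GCGTG, are short and were common. One or both were found in 29 of the 32 windows (90.6%) and in 17012 of the 35116 windows of all genes (48.4%). Matches to GCGTG overlapped 4 of the 8 copies of ERSE, and matches to ACGTG overlapped 3 of the 4 copies of ERSE-II, because both elements end in CCACG, most of a core read on the other strand. The UPR element core TGACGTG, which itself contains ACGTG, was found in 1 of the 32 windows, that of HYOU1, and in 1.97% of all. The windows of HSP90B1, DNAJB9, PDIA5, XBP1 and HERPUD1 held 4 copies of the HIF core letters each, with both strands counted. The windows of ERO1L and WFS1 are shown because these genes had the highest rises, with 3 copies of the HIF core letters in ERO1L and 1 in WFS1 in capitals.
ERO1L, chr14:52695509-52695808, minus strand: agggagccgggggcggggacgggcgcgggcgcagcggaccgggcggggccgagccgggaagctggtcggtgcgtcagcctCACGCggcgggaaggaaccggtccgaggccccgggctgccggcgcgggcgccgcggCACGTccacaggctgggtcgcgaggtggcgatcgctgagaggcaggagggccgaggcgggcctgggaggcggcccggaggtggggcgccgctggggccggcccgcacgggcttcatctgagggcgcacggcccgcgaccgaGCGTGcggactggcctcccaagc
WFS1, chr4:6269600-6269899, plus strand: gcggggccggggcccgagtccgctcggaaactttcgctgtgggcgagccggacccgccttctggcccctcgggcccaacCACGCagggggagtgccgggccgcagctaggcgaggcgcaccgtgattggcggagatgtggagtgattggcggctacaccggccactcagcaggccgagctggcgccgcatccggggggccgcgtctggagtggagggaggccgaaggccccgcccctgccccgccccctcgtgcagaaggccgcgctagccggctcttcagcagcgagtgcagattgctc

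In every cell line some of the 36 genes rose in hypoxia and others fell, and most chaperones that changed fell while most disulfide enzymes that changed rose. In HKC-8, 6 genes rose and 3 fell (adjusted p under 0.05, edgeR's quasi-likelihood test), which is 25.0% of the 36 genes, against 20.4% of all 13536 genes tested. That fit took the HKC-8 samples as unpaired, and the next paragraph gives the counts with replicate numbers as a block. In RCC4+VHL, 13 rose and 15 fell, against 50.1% of 12811 genes called in either direction. In HepG2, 8 rose and 10 fell of 35 tested, against 39.1% of 13623 genes. The median log2 fold change over the genes was -0.07 in HKC-8, -0.05 in RCC4+VHL and -0.06 in HepG2, near the 0.00 of all genes in each cell line. A group of 3 genes rose in all 3 cell lines: P4HB, ERO1L and EDEM1. A pair, SDF2L1 and MANF, fell in all 3. CALR, CANX, ERN1, EDEM3 and DERL1 were called in none. XBP1, CREB3L2, SYVN1 and WFS1 rose in at least 1 cell line and fell in another.

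The HKC-8 counts were the least stable. When replicate numbers entered the fit as a block, 20 genes were called in HKC-8 (11 up, 9 down), while the genes called among all 13536 went from 20.4% to 42.5%. The genes added were DNAJB9, PDIA5, PDIA6, SEL1L and DERL3 on the side of the rises and HSP90B1, DNAJB11, CRELD2, EDEM2, SEC61B and SEC24D on the side of the falls. Without HKC-8 normoxia replicate 1 or hypoxia replicate 1, 5 genes were called, when 1013 and 1092 of all genes were called instead of 2757. The 5 without normoxia replicate 1 included SEC24D, a fall that was not called with all samples. Leaving out hypoxia replicate 2 gave 16 genes, with 21.8% of all genes called. The number that fell in HKC-8 was 1 without normoxia replicate 1 or 2 (2.37% and 3.80% of all genes fell), 0 without hypoxia replicate 1 or 3 (2.50% and 4.94%), and 8 without hypoxia replicate 2 (10.3%). ERO1L, HERPUD1, EDEM1 and WFS1 were called in HKC-8 under every alternative tried. In RCC4+VHL, 1 fit of all 18 samples called 17 genes instead of 28, and the calls it lost were HSPA5, HSP90B1, DNAJB9, DNAJC3, CRELD2, PDIA6, ERO1LB, EIF2AK3, ATF6, EDEM2 and DERL3. The share of all genes called in RCC4+VHL was 21.5% in that fit, against 50.1% when the cell line was fitted apart.

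**Figure D1:**
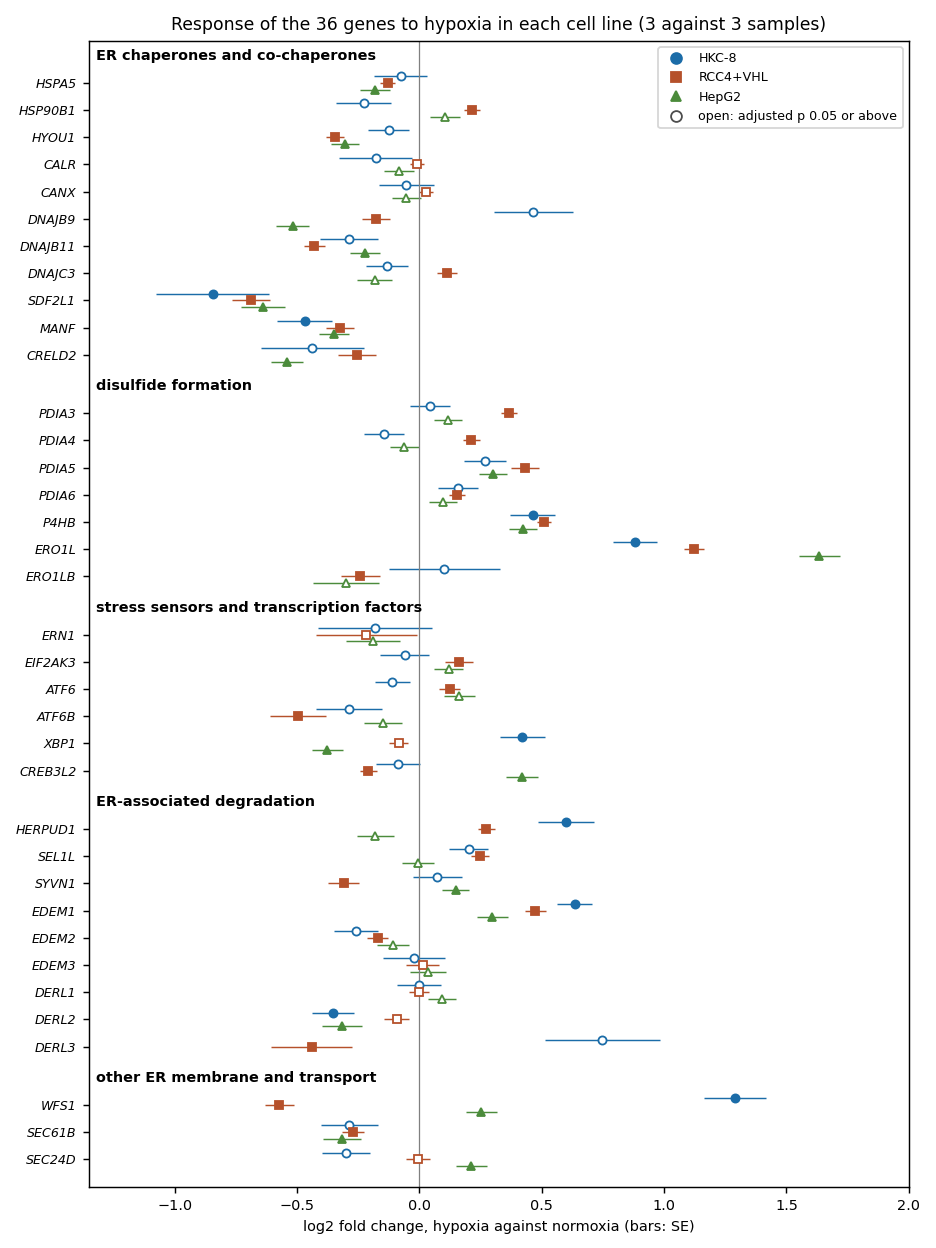
Log2 fold change in hypoxia against normoxia (x axis) of each of the 36 genes (y axis, grouped by role) in HKC-8 (circles), RCC4+VHL (squares) and HepG2 (triangles), 3 against 3 samples each, with bars for the standard error and filled symbols for an adjusted p under 0.05. ERO1L lies furthest to the right in RCC4+VHL (1.12) and HepG2 (1.63), and SDF2L1 furthest to the left in each cell line (-0.85, -0.69 and -0.64).

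Among the 11 ER chaperones and co-chaperones, hypoxia lowered more genes than it raised. None rose and 2 fell in HKC-8, 2 rose and 7 fell in RCC4+VHL, and none rose and 7 fell in HepG2, with medians of -0.18, -0.18 and -0.22. Over all genes tested, 11.2%, 25.9% and 19.9% rose and 9.12%, 24.2% and 19.2% fell in these cell lines. With the replicate block in HKC-8, DNAJB9 rose and SDF2L1, MANF, HSP90B1, DNAJB11 and CRELD2 fell. In that fit 20.95% of all genes rose and 21.56% fell.

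SDF2L1 (chr22:21996591-21998588, plus strand, GRCh37), a partner of ER DnaJ proteins that keeps unfolded chains soluble, fell the most in each cell line. In HKC-8 it was 7.602, 6.57 and 5.13 CPM in normoxia and 3.32, 4.71 and 2.65 CPM in hypoxia. In RCC4+VHL it was 14.3, 14.6 and 14.3 CPM in normoxia and 8.76, 9.09 and 8.88 CPM in hypoxia. In HepG2 it was 29.6, 31.7 and 25.9 CPM in normoxia and 18.4, 17.8 and 19.9 CPM in hypoxia. Every hypoxic sample was below every normoxic sample of its cell line. The log2 fold change was -0.85 ± 0.23 (SE, adjusted p = 0.033) in HKC-8, -0.69 ± 0.08 (adjusted p = 1.4e-07) in RCC4+VHL and -0.64 ± 0.09 (adjusted p = 1.1e-04) in HepG2. In HKC-8 the call was lost without normoxia replicate 1 or 2 or hypoxia replicate 1 or 3 (adjusted p up to 0.13).

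MANF (chr3:51422722-51426828, plus strand), a secreted ER protein induced by ER stress, fell by a smaller step. The HKC-8 samples had 63.2, 56.1 and 52.0 CPM in normoxia and 43.98, 44.2 and 35.1 CPM in hypoxia. The RCC4+VHL samples had 34.7, 36.5 and 35.0 CPM in normoxia and 27.5, 26.6 and 30.4 CPM in hypoxia. The HepG2 samples had 124, 119 and 111 CPM in normoxia and 89.4, 96.2 and 92.8 CPM in hypoxia. The groups did not overlap in any of the cell lines. The log2 fold change was -0.47 ± 0.11 in HKC-8 (adjusted p = 0.021), -0.32 ± 0.06 in RCC4+VHL (adjusted p = 5.9e-05) and -0.35 ± 0.06 in HepG2 (adjusted p = 6.5e-04). The HKC-8 call was lost without normoxia replicate 1 or hypoxia replicate 1 or 3 (adjusted p up to 0.095).

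HSPA5 (chr9:127997132-128003661, minus strand), the most used reporter of ER stress, changed little. Levels in HKC-8 were 1073, 963 and 880.2 CPM in normoxia and 1012, 936 and 811 CPM in hypoxia, with overlapping groups and a log2 fold change of -0.08 ± 0.11 (adjusted p = 0.65, 0.26 with the replicate block). Levels in RCC4+VHL were 929, 905 and 916 CPM in normoxia and 816, 841 and 846 CPM in hypoxia, a fall to 0.914 of the normoxic level (log2 fold change -0.13 ± 0.03, adjusted p = 0.0010). Levels in HepG2 were 2051, 1905 and 1908 CPM in normoxia and 1740, 1787 and 1647 CPM in hypoxia, a fall to 0.882 (log2 fold change -0.18 ± 0.06, adjusted p = 0.035). The groups did not overlap in RCC4+VHL or HepG2. The HepG2 call was lost without normoxia replicate 1 or any one of the hypoxic samples (adjusted p up to 0.14), and in 1 fit of all 18 samples neither fall passed the test (adjusted p up to 0.24).

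Of the other chaperones, HYOU1, a nucleotide exchange factor for HSPA5, and DNAJB11, one of its co-chaperones, fell in both RCC4+VHL (log2 fold change -0.35 and -0.43) and HepG2 (-0.30 and -0.22). The DNAJB11 call in HepG2 was lost without hypoxia replicate 1 and in 1 fit of all 18 samples (adjusted p up to 0.077). CRELD2, a secreted protein induced with MANF, fell in RCC4+VHL by 0.26 and in HepG2 by 0.54 on the log2 scale. In HepG2 its level was 39.0, 39.0 and 40.2 CPM in normoxia and 26.8, 26.1 and 28.4 CPM in hypoxia. HSP90B1 (GRP94) and DNAJC3 rose in RCC4+VHL (0.21 ± 0.03 and 0.11 ± 0.04). In 1 fit of all 18 samples neither rise passed the test (adjusted p = 0.074 and 0.32), and the DNAJC3 call was also lost without normoxia replicate 2 or 3 or hypoxia replicate 3. In HKC-8 the log2 fold change of HSP90B1 was -0.23 (adjusted p = 0.18, 0.0064 with the replicate block). The lectin chaperones CALR and CANX passed the test in none of the cell lines, with log2 fold changes between -0.18 and 0.03.

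DNAJB9, a co-chaperone of HSPA5 that holds back ERN1, moved differently. For HepG2 the values were 61.4, 64.8 and 56.8 CPM in normoxia and 41.5, 43.5 and 42.9 CPM in hypoxia, and it fell by 0.52 ± 0.07 on the log2 scale (adjusted p = 6.2e-05). In RCC4+VHL it fell by 0.18 ± 0.06 (adjusted p = 0.014), a call lost without normoxia replicate 3. For HKC-8 the values were 8.53, 7.53 and 9.46 CPM in normoxia and 13.7, 9.41 and 12.03 CPM in hypoxia, and the groups overlapped by a single hypoxic sample. Its log2 fold change in HKC-8, 0.47 ± 0.16, did not pass the test (adjusted p = 0.070), and did so with the replicate block (adjusted p = 0.0061).

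**Figure D2:**
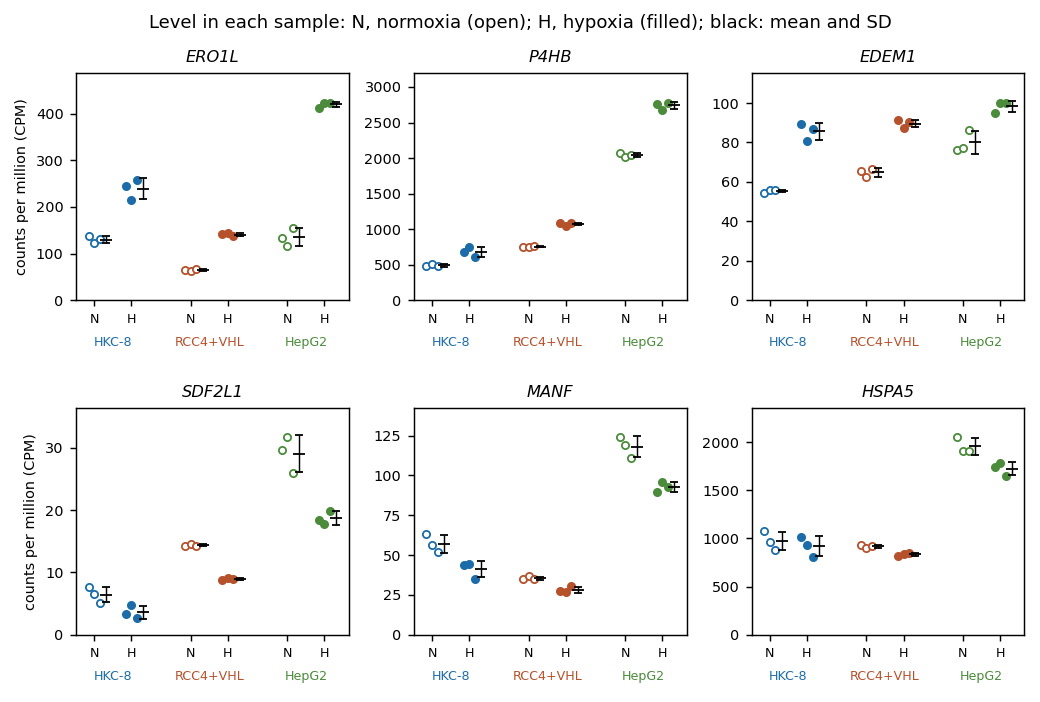
Level in CPM (y axis, from 0) of ERO1L, P4HB, EDEM1, SDF2L1, MANF and HSPA5 in each sample in normoxia (N, open) and hypoxia (H, filled) of the 3 cell lines, with the mean and SD of 3 samples in black. ERO1L, P4HB and EDEM1 were higher and SDF2L1 and MANF lower in every hypoxic sample of each cell line, whereas the HSPA5 groups overlapped in HKC-8.

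Among the enzymes of disulfide formation, more genes rose than fell in each cell line. Of the 7 genes, 2 rose in HKC-8, 6 in RCC4+VHL and 3 in HepG2, against 11.2%, 25.9% and 19.9% of all genes tested, and the only fall was that of ERO1LB in RCC4+VHL. The median log2 fold change was 0.16 in HKC-8, 0.36 in RCC4+VHL and 0.12 in HepG2. With the replicate block PDIA5 and PDIA6 also rose in HKC-8, when 20.95% of all genes rose.

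ERO1L, the ER oxidase that reoxidises protein disulfide isomerases, lies on chromosome 14 (chr14:53106633-53162618, minus strand, GRCh37). In HKC-8 it was 137, 122 and 131 CPM in normoxia and 245, 214 and 257 CPM in hypoxia. For RCC4+VHL the values were 64.7, 63.5 and 66.6 CPM in normoxia and 141, 143 and 138 CPM in hypoxia. In HepG2 it was 133, 117 and 155 CPM in normoxia and 412, 423 and 423 CPM in hypoxia. The hypoxic samples lay well above the normoxic ones in each cell line. The rise was 1.84-fold in HKC-8 (log2 fold change 0.88 ± 0.09, adjusted p = 4.2e-04), 2.18-fold in RCC4+VHL (1.12 ± 0.04, adjusted p = 7.2e-17) and 3.10-fold in HepG2 (1.63 ± 0.08, adjusted p = 5.5e-09).

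Its paralogue ERO1LB, best known from pancreatic beta cells, did not follow. The HKC-8 samples had 5.11, 3.25 and 5.12 CPM in normoxia and 5.92, 3.72 and 4.81 CPM in hypoxia (log2 fold change 0.10 ± 0.23, adjusted p = 0.78). In RCC4+VHL it was 13.8, 13.5 and 14.7 CPM in normoxia and 12.2, 10.8 and 12.4 CPM in hypoxia, and fell by 0.24 ± 0.08 (adjusted p = 0.015). The HepG2 samples had 6.01, 5.33 and 5.80 CPM in normoxia and 4.93, 5.06 and 3.88 CPM in hypoxia (-0.30 ± 0.13, adjusted p = 0.095). The RCC4+VHL call was lost without normoxia replicate 3 or hypoxia replicate 2. Per kilobase of the canonical transcript, ERO1L in normoxia was at 25.3, 12.6 and 26.3 CPM in HKC-8, RCC4+VHL and HepG2, and ERO1LB at 0.899, 2.81 and 1.14 CPM.

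P4HB (chr17:79801035-79818732, minus strand), a protein disulfide isomerase that is also the beta subunit of collagen prolyl 4-hydroxylase, rose by similar steps in the 3 cell lines. Levels in HKC-8 were 484, 513 and 475 CPM in normoxia and 673, 745 and 609 CPM in hypoxia. The RCC4+VHL samples had 752, 755 and 758 CPM in normoxia and 1081, 1050 and 1080 CPM in hypoxia. Levels in HepG2 were 2070, 2018 and 2041 CPM in normoxia and 2764, 2678 and 2777 CPM in hypoxia. No hypoxic sample overlapped a normoxic one of its cell line. The log2 fold changes were 0.46 ± 0.09 (adjusted p = 0.0098), 0.51 ± 0.03 (adjusted p = 1.4e-12) and 0.42 ± 0.06 (adjusted p = 8.7e-05) in HKC-8, RCC4+VHL and HepG2. Without HKC-8 normoxia replicate 1 the adjusted p in HKC-8 was 0.055.

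PDIA5 rose in RCC4+VHL by 0.43 ± 0.06 and in HepG2 by 0.30 ± 0.06, and had a log2 fold change of 0.27 ± 0.09 in HKC-8 (adjusted p = 0.055, 0.0041 with the replicate block). PDIA3, the isomerase that works with calnexin and calreticulin, rose by 0.36 ± 0.03 in RCC4+VHL, where PDIA4 and PDIA6 also rose (0.21 and 0.15). These 3 were called in neither HKC-8 nor HepG2, with log2 fold changes from -0.14 to 0.16. PDIA6 passed the test in HKC-8 with the replicate block (adjusted p = 0.043).

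The summed level of each group of genes was also taken, with no test, and for some groups it depended on the scaling. On the TMM-scaled CPM used for single genes, the 11 chaperones summed to 4876 ± 438 CPM (SD, n = 3) in normoxic and 4413 ± 484 CPM in hypoxic HKC-8 and to 5822 ± 83 and 5774 ± 113 CPM in RCC4+VHL, with overlapping groups in both. In HepG2 the sums were 7141 ± 190 and 6699 ± 199 CPM, a fall of the mean by 6.19%, without overlap. Within pairs of the same replicate number the HKC-8 sum was lower in hypoxia each time, and with the replicate block SDF2L1, MANF, HSP90B1, DNAJB11 and CRELD2 fell and DNAJB9 rose. The 7 disulfide genes summed to 1862 ± 48 and 2192 ± 125 CPM in HKC-8, 1964 ± 13 and 2568 ± 30 CPM in RCC4+VHL, and 4449 ± 82 and 5527 ± 38 CPM in HepG2, higher in hypoxia by 17.7%, 30.8% and 24.2% and with no overlap in any of them. P4HB and ERO1L made up most of the difference in each cell line. The mean of P4HB went from 491 to 675.5 CPM in HKC-8, 755 to 1071 CPM in RCC4+VHL and 2043 to 2740 CPM in HepG2. That of ERO1L went from 130 to 239, 65.0 to 141 and 135 to 419.5 CPM in the same order. The sum of the 9 degradation genes was higher in hypoxia without overlap in HKC-8 (472 ± 14 and 543 ± 12 CPM) and RCC4+VHL (739 ± 17 and 807 ± 9.3 CPM), and overlapped in HepG2 (784 ± 19 and 783 ± 15 CPM). The 6 sensors and transcription factors overlapped in HKC-8 (429 ± 22 and 439 ± 9.1 CPM) and HepG2 (812 ± 49 and 795 ± 6.6 CPM) and were lower in hypoxia without overlap in RCC4+VHL (419 ± 4.5 and 395 ± 6.6 CPM). The 3 ER membrane and transport genes overlapped in HKC-8 (182 ± 5.0 and 193 ± 22 CPM), were lower in RCC4+VHL (130.4 ± 0.95 and 110.4 ± 0.74 CPM) and higher in HepG2 (421 ± 9.6 and 450.3 ± 19 CPM), both without overlap.

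As a share of all counts, without the TMM factors, the chaperones were lower in hypoxia by more in RCC4+VHL (0.593 ± 0.010% and 0.557 ± 0.011%) and HepG2 (0.722 ± 0.014% and 0.635 ± 0.021%), with no overlap, and still overlapped in HKC-8 (0.500 ± 0.035% and 0.457 ± 0.045%). The TMM factors themselves were 1.016 to 1.021 in normoxic and 0.964 to 0.965 in hypoxic RCC4+VHL, and 1.004 to 1.019 and 0.944 to 0.953 in HepG2, so that a gene at an equal scaled level had a smaller share of the counts in hypoxia. The disulfide genes took a higher share in hypoxia in each cell line, again without overlap. In HepG2 the shares of the degradation genes and of the sensors were lower in hypoxia without overlap, where their scaled sums overlapped, and that of the membrane and transport genes overlapped. For all 36 genes together the direction in HepG2 turned with the scaling, as it did in HKC-8, where the groups overlapped on each scale. Their share of counts was 0.803 ± 0.037% and 0.805 ± 0.056% in normoxic and hypoxic HKC-8, 0.923 ± 0.010% and 0.931 ± 0.0087% in RCC4+VHL, and 1.37 ± 0.025% and 1.35 ± 0.023% in HepG2. As shares the groups overlapped in every cell line. Their summed scaled level was 7821 ± 475 and 7779 ± 622 CPM in HKC-8, 9074 ± 81 and 9654 ± 96 CPM in RCC4+VHL, and 13610 ± 344 and 14250 ± 194 CPM in HepG2, higher in hypoxia by 6.39% in RCC4+VHL and 4.75% in HepG2 with no overlap. P4HB alone went from a mean of 755 to 1071 CPM in RCC4+VHL and from 2043 to 2740 CPM in HepG2. In HepG2 that step was larger than the step of the whole sum. P4HB is left out of the share given next. Outside the 100 most counted genes, which leaves 31 of the 36, the share was higher in hypoxia by more than the SD in HKC-8 (0.377 ± 0.011% and 0.405 ± 0.013%) and RCC4+VHL (0.374 ± 0.0022% and 0.384 ± 0.00078%) but not in HepG2 (0.680 ± 0.014% and 0.676 ± 0.0093%).

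Among the 6 sensors and transcription factors, 1 rose in HKC-8, 2 rose and 2 fell in RCC4+VHL, and 1 rose and 1 fell in HepG2, where 20.4%, 50.1% and 39.1% of all genes tested were called in either direction. XBP1 (chr22:29190543-29196585, minus strand), the transcription factor whose mRNA ERN1 splices, went in opposite directions. For HKC-8 the values were 86.7, 90.5 and 107 CPM in normoxia and 132, 123 and 125 CPM in hypoxia (log2 fold change 0.42 ± 0.09, adjusted p = 0.014). For HepG2 the values were 472, 413 and 434 CPM in normoxia and 355, 332 and 329 CPM in hypoxia (-0.38 ± 0.06, adjusted p = 4.8e-04). Levels in RCC4+VHL were 111, 109 and 112 CPM in normoxia and 107, 102 and 103 CPM in hypoxia (-0.09 ± 0.04, adjusted p = 0.063). The groups did not overlap in any cell line, and the HKC-8 call was lost without normoxia replicate 1 or 2 or hypoxia replicate 1 (adjusted p up to 0.075). Counts per gene do not separate spliced from unspliced XBP1.

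CREB3L2, an ER-bound transcription factor related to ATF6, rose in HepG2 from 233, 201 and 232 CPM to 292, 303 and 296 CPM (0.42 ± 0.06, adjusted p = 1.9e-04). In RCC4+VHL it fell by 0.21 ± 0.04 (adjusted p = 3.3e-05), and in HKC-8 its log2 fold change was -0.09 ± 0.09. ATF6B, a relative of ATF6, fell in RCC4+VHL from 10.9, 7.71 and 10.2 CPM to 6.49, 6.89 and 6.96 CPM (-0.50 ± 0.11, adjusted p = 8.9e-04). The sensors themselves moved little. EIF2AK3 and ATF6 rose in RCC4+VHL by 0.16 ± 0.06 and 0.12 ± 0.04, calls that were lost when some single samples were left out. ERN1, at 0.848 to 9.33 CPM over all samples, was called in none of the cell lines (log2 fold change -0.18, -0.22 and -0.19).

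Of the 9 genes of ER-associated degradation, 2 rose and 1 fell in HKC-8, 3 rose and 3 fell in RCC4+VHL, and 2 rose and 1 fell of 8 tested in HepG2, against the same 20.4%, 50.1% and 39.1% of all genes. EDEM1 (chr3:5229331-5261643, plus strand), a mannosidase-like protein that hands misfolded glycoproteins to the degradation machinery, rose in all 3. In HKC-8 it was 54.5, 55.7 and 55.7 CPM in normoxia and 89.2, 80.8 and 86.9 CPM in hypoxia. For RCC4+VHL the values were 65.5, 62.4 and 66.4 CPM in normoxia and 91.2, 87.4 and 90.2 CPM in hypoxia. In HepG2 it was 76.3, 77.3 and 86.5 CPM in normoxia and 94.9, 99.9 and 100.1 CPM in hypoxia. The groups were apart in each cell line. The log2 fold change was 0.63 ± 0.07 (adjusted p = 7.7e-04) in HKC-8, 0.47 ± 0.04 (adjusted p = 2.3e-09) in RCC4+VHL and 0.30 ± 0.06 (adjusted p = 0.0024) in HepG2. Its relatives did not follow: EDEM2 fell by 0.17 ± 0.04 in RCC4+VHL, and EDEM3 was called in none of the cell lines (-0.02, 0.01 and 0.03).

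HERPUD1, a membrane protein that organises the degradation complex, rose in HKC-8 (0.60 ± 0.12, adjusted p = 0.0087) and in RCC4+VHL (0.27 ± 0.04, adjusted p = 1.1e-06). The HKC-8 samples had 59.7, 55.4 and 71.3 CPM in normoxia and 101, 82.0 and 98.4 CPM in hypoxia, and the groups did not overlap. The HepG2 samples had 178, 169 and 143 CPM in normoxia and 149, 147 and 138 CPM in hypoxia, with overlap and a log2 fold change of -0.18 ± 0.08 (adjusted p = 0.081). SYVN1 (HRD1), the ubiquitin ligase of the complex, fell by 0.31 ± 0.06 in RCC4+VHL and rose by 0.15 ± 0.06 in HepG2 (adjusted p = 0.047), a call that 10 of 12 alternatives did not keep. SEL1L, the adaptor of SYVN1, rose by 0.25 ± 0.04 in RCC4+VHL and was not called in HKC-8 (0.20 ± 0.08) or HepG2 (-0.00 ± 0.07).

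The derlins, channel proteins of the same complex, differed among themselves. DERL2 fell in HKC-8 from 40.3, 38.6 and 35.6 CPM to 29.5, 31.0 and 28.8 CPM (-0.35 ± 0.09, adjusted p = 0.022) and in HepG2 by 0.32 ± 0.08 (adjusted p = 0.0083). Its HKC-8 call was lost without normoxia replicate 1 or 2 or hypoxia replicate 1 or 3 (adjusted p up to 0.10). DERL1 was called in none of the cell lines, with log2 fold changes from -0.00 to 0.09. DERL3, known from secretory cells, was at 1.36 to 1.43 CPM in normoxic and 1.80 to 3.05 CPM in hypoxic HKC-8 (0.75 ± 0.23, adjusted p = 0.051), and fell by 0.44 ± 0.17 in RCC4+VHL (adjusted p = 0.031). In HepG2 its counts were 2, 2 and 0 in normoxia and 2, 0 and 0 in hypoxia, at or below the floor of 3 counts, and it was not tested there. The DERL3 call in RCC4+VHL was lost without normoxia replicate 2 or 3 or hypoxia replicate 1 or 2 (adjusted p up to 0.11).

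WFS1 (chr4:6271576-6304992, plus strand), an ER membrane protein that stabilises calcium handling and restrains ER stress signalling, had the largest rise of the 36 genes in HKC-8. It was 30.5, 27.4 and 24.0 CPM in normoxia and 65.0, 77.1 and 57.9 CPM in hypoxia, a 2.45-fold rise (log2 fold change 1.29 ± 0.13, adjusted p = 3.0e-04). In RCC4+VHL it was 27.3, 29.0 and 28.5 CPM in normoxia and 19.1, 18.6 and 19.02 CPM in hypoxia, a fall by 0.57 ± 0.06 (adjusted p = 2.8e-08). Levels in HepG2 were 174, 163 and 175 CPM in normoxia and 196, 193 and 221 CPM in hypoxia, a rise of 0.25 ± 0.06 (adjusted p = 0.0070). No groups overlapped. SEC61B, a subunit of the translocon, fell in RCC4+VHL and HepG2 (-0.27 and -0.32), and SEC24D, a cargo adaptor of COPII vesicles, rose in HepG2 (0.21), a call lost without hypoxia replicate 2 or 3 (adjusted p up to 0.075), and had a log2 fold change of -0.30 in HKC-8 (adjusted p = 0.056).

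The test of the difference in response between cell lines asks which of these contrasts exceed the spread of samples. Between HKC-8 and HepG2, 8 of the 36 genes differed (5 with the higher log2 fold change in HKC-8 and 3 in HepG2), against 9.30% of 15046 genes tested (4.28% and 5.02% in these directions). WFS1 differed by 1.03 ± 0.15 (adjusted p = 4.4e-04), DNAJB9 by 0.98 ± 0.17 (adjusted p = 0.0020), XBP1 by 0.79 ± 0.12 (adjusted p = 6.1e-04) and HERPUD1 by 0.77 ± 0.15 (adjusted p = 0.0041), all higher in HKC-8. ERO1L and CREB3L2 had the higher response in HepG2, by 0.75 ± 0.14 (adjusted p = 0.0026) and 0.51 ± 0.11 (adjusted p = 0.011). With the replicate block 10 genes differed, 5 in each direction, against 20.1% of all genes. If the 0.1% oxygen in titles of the hypoxic HKC-8 samples holds, exposure and cell line cannot be told apart here either.

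Between RCC4+VHL and HKC-8, 8 genes differed, 3 with the higher response in RCC4+VHL and 5 in HKC-8, against 15.2% of 14203 genes (7.87% and 7.29%). The replicate block gave 15 genes, 8 of them higher in RCC4+VHL, against 28.7% of all genes. WFS1 differed most, with a response 1.88 ± 0.14 lower in RCC4+VHL on the log2 scale (adjusted p = 4.2e-06). XBP1, DNAJB9 and DERL3 also responded lower in RCC4+VHL (-0.52, -0.66 and -1.21), and PDIA3 and PDIA4 higher (0.30 and 0.34). The number of genes that differed was 5 without RCC4+VHL normoxia replicate 2 or 3 and 4 without RCC4+VHL hypoxia replicate 1, when 10.3%, 10.7% and 11.3% of all genes were called. The calls of DNAJB9, PDIA3 and PDIA4 were each lost without at least 1 single sample.

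Between RCC4+VHL and HepG2, 13 genes differed, 7 with the higher response in RCC4+VHL and 6 in HepG2, against 22.6% of 14813 genes (10.9% and 11.7%). WFS1 (-0.83 ± 0.08), CREB3L2 (-0.64 ± 0.07), ERO1L (-0.52 ± 0.09) and SYVN1 (-0.47 ± 0.09) responded lower in RCC4+VHL, and HERPUD1 (0.44 ± 0.09) and PDIA4 (0.26 ± 0.07) higher. The adjusted p of these 6 genes ranged from 2.9e-07 to 0.0074. The 3 tests share cell lines, so they are not independent of each other.

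**Figure D3:**
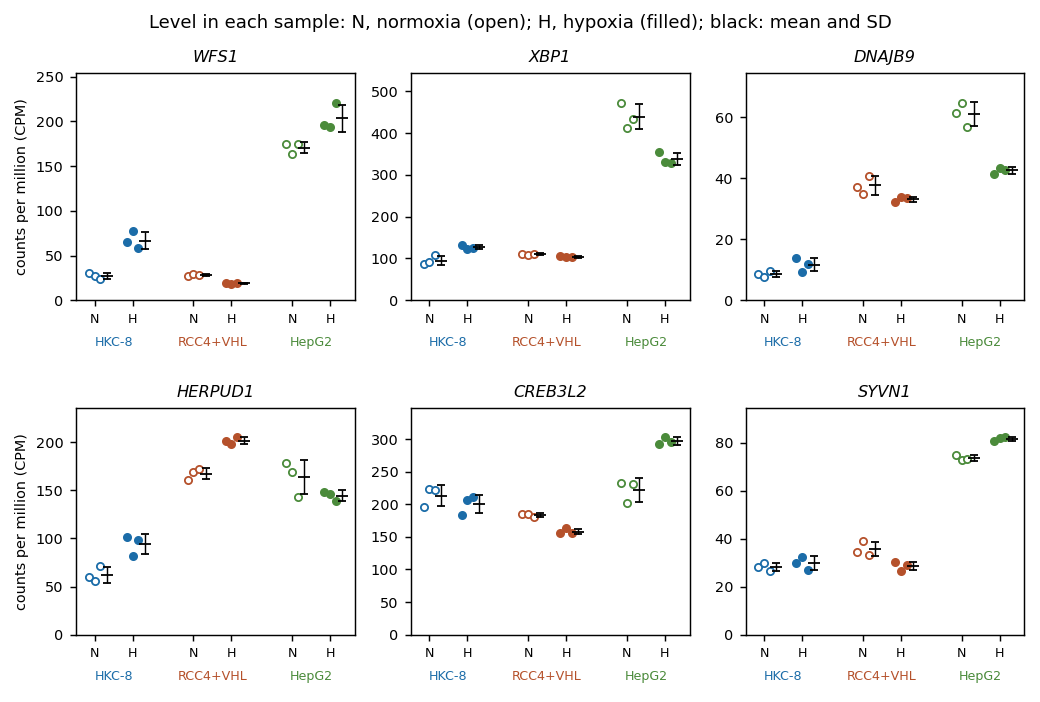
Level in CPM (y axis, from 0) of WFS1, XBP1, DNAJB9, HERPUD1, CREB3L2 and SYVN1 in each sample in normoxia (N, open) and hypoxia (H, filled) of the 3 cell lines, with the mean and SD of 3 samples in black. WFS1 went from a mean of 27.3 to 66.7 CPM in HKC-8 and from 28.2 to 18.9 CPM in RCC4+VHL, from nearly the same normoxic level.

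In normoxia the share of the 36 genes that differed between cell lines was 80.6%, 94.4% and 86.1% in the 3 comparisons below, near the 83.0%, 83.3% and 80.8% of all genes, and most of the differences from HepG2 had the higher level in HepG2. HepG2 had the highest mean normoxic level for 29 of the 36 genes, RCC4+VHL for 7 and HKC-8 for none, whereas HepG2 was highest for 30.6% of the 10867 genes with at least 10 counts in every sample. Total counts also differed by cell line, so cell line and library cannot be told apart in these levels. Against HKC-8, 28 of the 36 genes were higher and 1, DERL3, was lower in HepG2 (of 14806 genes, 83.0% differed, 42.6% higher and 40.5% lower), with a median log2 difference of 0.75 against 0.02 over all genes. Against RCC4+VHL, 28 were higher and 6 lower (83.3% of genes, 45.3% higher and 38.1% lower), with a median of 1.00 against 0.11 over all genes. Between RCC4+VHL and HKC-8, 19 were higher and 12 lower in RCC4+VHL (80.8% of genes, 39.4% higher and 41.4% lower).

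Leaving out DERL3, the differences were largest for ERN1, DNAJB9, WFS1 and XBP1. ERN1 was at 1.12 ± 0.10 CPM (SD, n = 3) in normoxic HKC-8, 2.23 ± 0.56 CPM in RCC4+VHL and 8.38 ± 0.875 CPM in HepG2, a 7.56-fold difference between HepG2 and HKC-8 (adjusted p = 7.4e-09). DNAJB9 was at 8.504 ± 0.97, 37.7 ± 3.0 and 61.0 ± 4.0 CPM in the same order, a 7.27-fold difference. WFS1 was 6.34-fold and XBP1 4.70-fold higher in HepG2 than in HKC-8, and MANF 3.35-fold higher in HepG2 than in RCC4+VHL. RCC4+VHL exceeded HKC-8 by 4.46-fold in DNAJB9, 3.14-fold in ERO1LB, 2.71-fold in HERPUD1 and 2.26-fold in SDF2L1. DERL3 was the 1 gene called lower in HepG2 than in HKC-8, with 2, 2 and 0 counts against a mean of 1.38 CPM in HKC-8 and 3.02 CPM in RCC4+VHL.

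For 32 of 35 genes, leaving out DERL3, the level in normoxia spanned more between the cell lines than hypoxia changed it in any of them, as it did for 92.5% of the 10867 genes. The median span was 2.32-fold, and the median of the largest change by hypoxia 1.24-fold, against 2.25-fold and 1.25-fold over the 10867 genes. ERO1L, EDEM1 and CREB3L2 were the 3 exceptions. ERO1L spanned 2.08-fold between cell lines and rose 3.10-fold in HepG2.

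**Figure D4:**
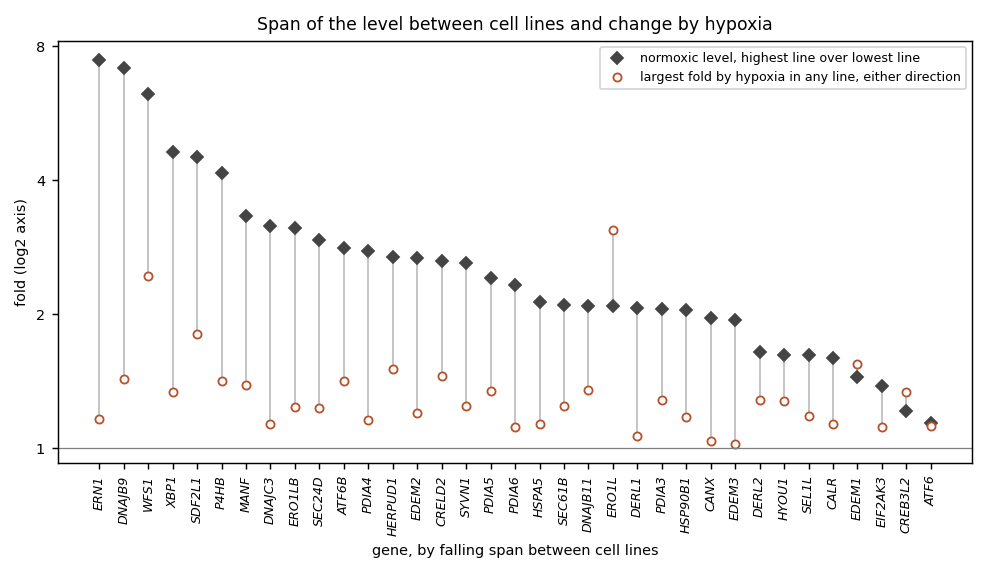
Ratio of the highest to the lowest mean normoxic level of the 3 cell lines (diamonds) and the largest change by hypoxia in any cell line, in either direction (circles), on a log2 axis, for 35 genes ordered by the first ratio (x axis). The circles lie below the diamonds except for ERO1L, EDEM1 and CREB3L2.

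Other genes of the pathway, taken from lists of roles, placed these responses. Of 8 genes of the PERK and ATF4 arm, ATF4 included, 8 rose in HKC-8 (median log2 fold change 1.27), while 2 rose and 2 fell in RCC4+VHL (median -0.04) and 1 rose and 3 fell in HepG2 (median -0.17). The rise in HepG2 was that of ATF3 (0.38 ± 0.11, adjusted p = 0.012), while CHAC1, with the highest value there (1.07 ± 0.56), did not pass the test (adjusted p = 0.15). Over all genes tested the shares called in either direction were 20.4%, 50.1% and 39.1%, so that the 4 of 8 in RCC4+VHL and in HepG2 were near the background. ATF4, the transcription factor of this arm, was 377, 398 and 378 CPM in normoxic and 556, 517 and 572 CPM in hypoxic HKC-8, a rise of 0.52 ± 0.08 (adjusted p = 0.0031). For HepG2 the values were 459, 471 and 450.1 CPM in normoxia and 391, 354 and 357 CPM in hypoxia, a fall of 0.33 ± 0.06 (adjusted p = 0.0011). DDIT3 (CHOP), which ATF4 induces, rose in HKC-8 by 0.91 ± 0.19 and fell in HepG2 by 0.96 ± 0.12. In RCC4+VHL the log2 fold changes of ATF4 and DDIT3 were -0.03 and -0.05 and did not pass the test.

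The other genes of this arm with a rise of at least 1 on the log2 scale in HKC-8 were CHAC1 (2.09), TRIB3 (2.00), ASNS (1.93), ATF3 (1.34) and SESN2 (1.21). ASNS, asparagine synthetase, varied between the HKC-8 samples, at 82.8, 99.4 and 237 CPM in normoxia and 452, 439 and 705 CPM in hypoxia, and was highest in replicate 3 of each group. TRIB3 rose in RCC4+VHL as well (1.45). The responses of HKC-8 and HepG2 differed in 6 of the 8 genes by the same test, all higher in HKC-8, against 9.30% of all genes, ATF4 by 0.84 ± 0.10 (adjusted p = 7.5e-05) and DDIT3 by 1.86 ± 0.24 (adjusted p = 1.8e-04). Between RCC4+VHL and HKC-8 it called 7 of 8, all lower in RCC4+VHL, against 15.2% of all genes.

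Other lists hold genes of neighbouring ER functions. Of 14 other genes of the disulfide isomerase family and ER oxidation, 2 rose and none fell in HKC-8, 4 rose and 5 fell in RCC4+VHL, and 2 rose and 3 fell in HepG2. QSOX1, a sulfhydryl oxidase, was the only one of them called with a change of at least 1 on the log2 scale, from 31.7, 30.8 and 31.7 CPM to 79.6, 79.0 and 89.9 CPM in HepG2 (1.40 ± 0.07, adjusted p = 3.2e-09). Of 20 genes of the translocon, signal peptidase and oligosaccharyltransferase, 2, 7 and 1 rose and 0, 10 and 4 fell in HKC-8, RCC4+VHL and HepG2. Of 16 genes of the COPII coat and cargo receptors, 0, 4 and 6 rose and 3, 7 and 2 fell, and of 16 other degradation genes 0, 5 and 4 rose and 1, 7 and 3 fell. Of all genes tested, 20.4%, 50.1% and 39.1% were called in these cell lines.

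The promoter elements were also read against the responses. Of the 10 genes with an ERSE or ERSE-II, 2 rose and 1 fell in HKC-8, 2 rose and 5 fell in RCC4+VHL, and none rose and 5 fell in HepG2, with medians of -0.10, -0.11 and -0.24. Of all genes tested 11.2%, 25.9% and 19.9% rose and 9.12%, 24.2% and 19.2% fell. Of the 22 genes with a window and neither element, 4, 10 and 7 rose and 2, 9 and 5 fell, with medians of -0.07, -0.04 and 0.01. XBP1 and HERPUD1, whose elements are printed above, rose in HKC-8, and SDF2L1, with an ERSE-II, fell in every cell line.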

How the data were processed

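The authors trimmed reads with Trim Galore 0.3.3, aligned them to GRCh37 with TopHat 2.0.8b and Bowtie 1.0.0, discarded non-uniquely mapped fragments and counted reads on UCSC genes with HTSeq 0.5.4p3 in intersection-strict mode. The deposited values are raw counts per gene, one file for each of the 18 samples. The strand setting of the counting is not given in the sources used here, and 16 of the 36 genes share exon bases with another annotated gene, where reads may have been left out or shared. From the counts, each cell line was fitted apart in R 4.3.3 with edgeR 4.0.16 (filterByExpr, TMM, glmQLFit and glmQLFTest), with p-values adjusted over all genes tested by the Benjamini-Hochberg method and calls at an adjusted p under 0.05. Differences between cell lines were tested as interactions in fits of 12 samples, and normoxic levels in 1 fit of the 9 normoxic samples. Standard errors were derived from each fold change and its quasi-likelihood F (absolute log2 value over root F). Levels are TMM-scaled CPM over all 18 samples, and per-kilobase levels use the exonic length of the canonical transcript (GENCODE 44, on GRCh37), which also gave gene coordinates. Total counts were 40915980 to 97984260 per sample, and 3 counts, the floor of detection for counting error only, equal 0.0306 to 0.0733 CPM. Promoters were searched with Python 3.11.15, and where the RefSeq table held more than 1 entry for a gene (5 genes) the first was used. The fits were also run on simulated counts, from which no result is given here. Alternatives were DESeq2 1.42.0, median-of-ratios size factors, 2 other low-count filters, a replicate block, 1 fit of all samples and each sample left out in turn.

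In HKC-8 the replicate numbers of the labels were taken to pair the normoxic and hypoxic samples, by the rule that r over 0.1 is needed in every pair: after subtraction of group means, samples sharing a number correlated across 13536 genes with r = 0.109, 0.453 and 0.447. Samples of different numbers had r from -0.469 to 0.116, the highest between normoxia replicate 1 and hypoxia replicate 2, so the pairing of replicate 1 is the weakest. The main fits did not use this pairing, which entered only as the replicate block among the alternatives. The genes described, the role groups and the other lists were chosen with earlier results of these data known. In each cell line the 3 genes with the largest rise and the 3 with the largest fall among those called, and HSPA5, XBP1, ERO1L and ERO1LB, are given with the value in every sample. In the tests of a difference at most 6 genes with the smallest p are named, in normoxic levels at most the 5 with the largest difference per contrast, and in the other lists called genes whose log2 value changed by 1 or more, with ATF4, DDIT3, CA9, NDRG1 and VEGFA always. PDIA3, PDIA5, EDEM2, SEL1L and other genes were added after their values were seen.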

Additional observations from a re-analysis of the deposited data

Results flagged for a closer look

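The responses of the 10 genes named here differed between cell lines in a test of the difference itself (edgeR's quasi-likelihood test of the interaction of cell line and oxygen, 3 samples per group). The log2 response of WFS1 was 1.03 higher in HKC-8 than in HepG2 (adjusted p = 4.4e-04), and the response in RCC4+VHL was different from that in HKC-8 by -1.88 (adjusted p = 4.2e-06) and from that in HepG2 by -0.83 (adjusted p = 2.9e-07). All 3 hypoxic samples were above the normoxic ones in HKC-8 and HepG2 and below them in RCC4+VHL.

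XBP1 differed by 0.79 (adjusted p = 6.1e-04) between HKC-8 and HepG2 and by -0.52 (adjusted p = 0.0051) between RCC4+VHL and HKC-8. DNAJB9 differed by 0.98 (adjusted p = 0.0020) and -0.66 (adjusted p = 0.023) in the same comparisons, and HERPUD1 by 0.77 (adjusted p = 0.0041) between HKC-8 and HepG2 and by 0.44 (adjusted p = 0.0014) between RCC4+VHL and HepG2. In each comparison with HKC-8, XBP1 and DNAJB9 had the higher response in HKC-8.

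ERO1L had the higher response in HepG2, with a difference of -0.75 (adjusted p = 0.0026) for HKC-8 and of -0.52 (adjusted p = 5.3e-04) for RCC4+VHL, as had CREB3L2 with -0.51 (adjusted p = 0.011) and -0.64 (adjusted p = 3.2e-06). SYVN1 differed by -0.47 (adjusted p = 6.5e-04) between RCC4+VHL and HepG2. PDIA4 had the higher response in RCC4+VHL, by 0.34 (adjusted p = 0.017) over HKC-8 and by 0.26 (adjusted p = 0.0074) over HepG2, and PDIA3 by 0.30 (adjusted p = 0.016) over HKC-8. DERL3 differed by -1.21 (adjusted p = 0.012) between RCC4+VHL and HKC-8, at levels of 1.36 to 3.30 CPM. Calls of the difference from HKC-8 were lost for PDIA4 without RCC4+VHL normoxia replicate 3 or hypoxia replicate 1, for PDIA3 without RCC4+VHL normoxia replicate 2, and for DNAJB9 in RCC4+VHL without HKC-8 normoxia replicate 1 or 2 or hypoxia replicate 1 or RCC4+VHL normoxia replicate 3 or hypoxia replicate 1. The labels give RCC4+VHL another oxygen level and duration, so the cell line and the exposure cannot be told apart in its comparisons, and titles of the hypoxic HKC-8 samples read 0.1% oxygen, so the same may hold between HKC-8 and HepG2.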

How the results depend on the processing

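No gene named in a comparison reversed under any alternative in which either fit called it, and the signs of 23 values that no fit called did turn. The count of genes called in HKC-8 (9 in the report, 6 up and 3 down) depended on the setting: 14 with DESeq2 (5 down), 20 with the replicate block and 20 in 1 fit of all 18 samples (11 up and 9 down in both), and 5 to 16 with single samples left out (0 to 8 down). The share of all genes called in HKC-8 was 26% with DESeq2, 42.5% with the block and 32.7% in the single fit, against 20.4%. With single samples left out that share was 7.37% to 24%. The single fit gave 17 genes in RCC4+VHL (8 up, 9 down) instead of 28. The cause was not tested. Over all genes the hypoxia response in HKC-8 moved from 1522 up and 1235 down to 2836 and 2919 with the block, to 2503 and 2510 in the single fit and to 687 and 326 without HKC-8 normoxia replicate 1, and that in RCC4+VHL from 3318 and 3105 to 1867 and 1419 in the single fit. The replicate block moved the differences between HKC-8 and HepG2 to 5 genes lower in HKC-8, and those between RCC4+VHL and HKC-8 to 15 genes (8 higher). With single samples left out the latter came to 4 to 10 genes, 1 to 5 of them higher and 3 to 5 lower. In those fits 10.3% to 20.6% of all genes differed, against 15.2% with every sample. The number of genes lower in HepG2 than in HKC-8 in normoxia was 2 without a low-count filter, 0 with at least 10 counts in every sample, which removes DERL3, and 1 to 2 with single samples left out. Over all genes 35.21%, 41.29% and 39.08% to 41.75% were lower in these fits, against 40.47%. In RCC4+VHL and HepG2 the replicate numbers did not pair the samples (r from -0.010 to 0.033 and from 0.062 to 0.184), and the block gave 28 and 20 genes instead of 28 and 18, although in HepG2 each sample correlated best with its own number. With the block 50.7% and 43% of all genes were called in these cell lines, against 50.1% and 39.1% without it. The HepG2 calls added by the block were DNAJC3, ATF6 and HERPUD1, and SYVN1 was lost. The difference between hypoxia and normoxia in the share of counts on the 36 genes was 0.0028 percentage points in HKC-8, 0.0078 in RCC4+VHL and -0.0250 in HepG2. With single samples left out its range in HKC-8 was -0.022 to 0.033, that in RCC4+VHL 0.0039 to 0.014 and that in HepG2 -0.037 to -0.011. On TMM-scaled library sizes, an alternative chosen after seeing the data, the difference was -0.0041 in HKC-8, 0.058 in RCC4+VHL and 0.065 in HepG2. Depth limits what can be said of DERL3 in HepG2, and antisense or overlapping genes were not separated.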
